A study of Mus musculus with 11 samples.

Results

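Piwil1, Piwil2, Piwil4, Mov10l1, Mael, Tdrd1, Tdrd5, Tdrd9, Asz1 and Pld6 are 10 genes of the piRNA pathway of germ cells. They were chosen by symbol among the 20389 rows of a table of unique molecular identifiers (UMIs, random tags that mark original RNA molecules), and each had 1 row. All 10 lie on autosomes. Their levels were followed over single cells of the mouse testis ordered from spermatogonia to late pachytene. Of the 10 genes, 9 had enough UMIs to be tested, and Piwil4 did not.

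PIWI proteins are Argonaute proteins that bind piRNAs, small RNAs made in the germ line, and use them to silence transposons and other transcripts. In the mouse, Piwil4 (MIWI2) acts in the nucleus of fetal germ cells, Piwil2 (MILI) acts in the cytoplasm before and during meiosis, and Piwil1 (MIWI) binds the piRNAs made in pachytene spermatocytes and spermatids. Their precursors are cut and trimmed in germ granules beside mitochondria, where the helicase Mov10l1, the nuclease Pld6 and scaffold proteins with Tudor domains work, and the transcription factor A-MYB (Mybl1) switches on the precursor genes in spermatocytes.

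The cells came from the testes of 3 adult mice that carry the Dazl-GFP reporter and received no treatment, so all comparisons are between stages, with mice as the replicates (n = 3). Live cells positive for the reporter, which marks germ cells, were sorted into single wells and sequenced from the 3′ end of their polyadenylated RNA by SORT-Seq. Mouse 1 gave 768 wells by CEL-Seq1, mouse 2 gave 384 wells and mouse 3 gave 768 wells, the last 2 mice by CEL-Seq2. Protocol and mouse 1 therefore cannot be told apart. In mouse 3, 1 library was sorted by a gate alone and the other by index sorting.

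Of 1920 wells, 1448 held at least 1000 UMIs, and 1200 of these fell into 12 stages. Stage 1 was undifferentiated spermatogonia-like, stages 2 and 3 differentiating spermatogonia-like, stage 4 preleptotene-like, stages 6 to 9 leptotene and zygotene-like, and stages 10 to 12 pachytene-like. Stage 5 was unnamed: Stra8, Prdm9 and Mei1 were among its 10 leading genes, and so was Clu. No member took part in the staging. Piwil1 was nevertheless among the 10 leading genes of stage 11. The order of stages 11 and 12 depended on the staging. From even-numbered autosomes, or without alignment across mice, a stage with Adam3 among its leading genes, as in stage 12, came earlier. It then preceded one with Slc47a2 and Piwil1, as in stage 11. The UMIs of the wells of each mouse and stage were added up, which gave 36 sums of 13 to 57 wells and 106114 to 4870644 autosomal UMIs. Levels are counts per 1000000 autosomal UMIs of a sum (CPM), and they are compared between stages and not between genes. Dazl, the gene of the reporter, stood at 1469 ± 137 (SD, n = 3) CPM at stage 1, at 3723 ± 335 at stage 8 and at 272 ± 37.2 at stage 12. The summed level of 9 Sertoli cell markers was 243 to 631 CPM in the 3 mice at stage 5, 348 to 513 at stage 8 and 13.8 to 18.6 at stage 12, with 1 to 3 of the 9 at 0 in each stage. The summed level of round spermatid markers had a mean of 37.2 CPM at stage 1 and 373 at stage 12. The part of either in the results was not tested.

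Piwil1 (chromosome 5, 128702524 to 128755474, GRCm38) was low in every mouse through stage 8 and high in the pachytene-like stages. At stage 1 it stood at 73.9, 138 and 264 CPM in mice 1, 2 and 3. At stage 8 the values were 131, 211 and 357, and at stage 9 they were 679, 778 and 1453. The values at stage 10 were 1867, 2543 and 2668, and those at stage 11 were 1634, 3108 and 2830. Each mouse was higher at stage 10 than any mouse at stages 1 to 9, while the ranges of stages 10, 11 and 12 overlapped. Mouse 1 was the lowest of the mice at each of the 12 stages.

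The low levels of Piwil1 at the early stages came with low levels of other genes of pachytene cells. At stage 1, Piwil1 stood at 5.09%, 5.22% and 10.5% of its own stage 12 level in mice 1, 2 and 3. Of 15 pachytene markers, 8 had a lower mean percentage and 7 a higher one, with a median of 5.67%. Ldhc, the lactate dehydrogenase of spermatocytes and sperm, stood at 3.93%. This percentage was highest in mouse 3 for 13 of the 15 markers, as it was for Piwil1. Whether RNA set free by other cells gave part of these UMIs was not tested.

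Piwil2 (chromosome 14, 70372477 to 70429383) was present from the first stage and had a low stretch in between. Its level was 393, 476 and 552 CPM in mice 1, 2 and 3 at stage 1, and 107, 191 and 255 at stage 3. It was 585, 677 and 881 at stage 8 and 944, 1202 and 1302 at stage 10. At stage 12 it was 489, 476 and 627. In each mouse, stage 10 was above stages 1, 3 and 12, and the ranges of stages 1 and 12 overlapped.

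Piwil4 (chromosome 9, 14696230 to 14740733) gave 12 UMIs in all, in 7 wells of stages 1 and 2. At stage 1 mouse 1 had 10 of these UMIs and mouse 2 had 1, and the remaining UMI came from mouse 3 at stage 2. A count of 0 allows up to 0.224 CPM in mouse 1 and 0.574 in mouse 2 over stages 2 to 12, at 3 counts of the total and for counting error only. The gene was too low for any comparison.

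**Figure D1:**
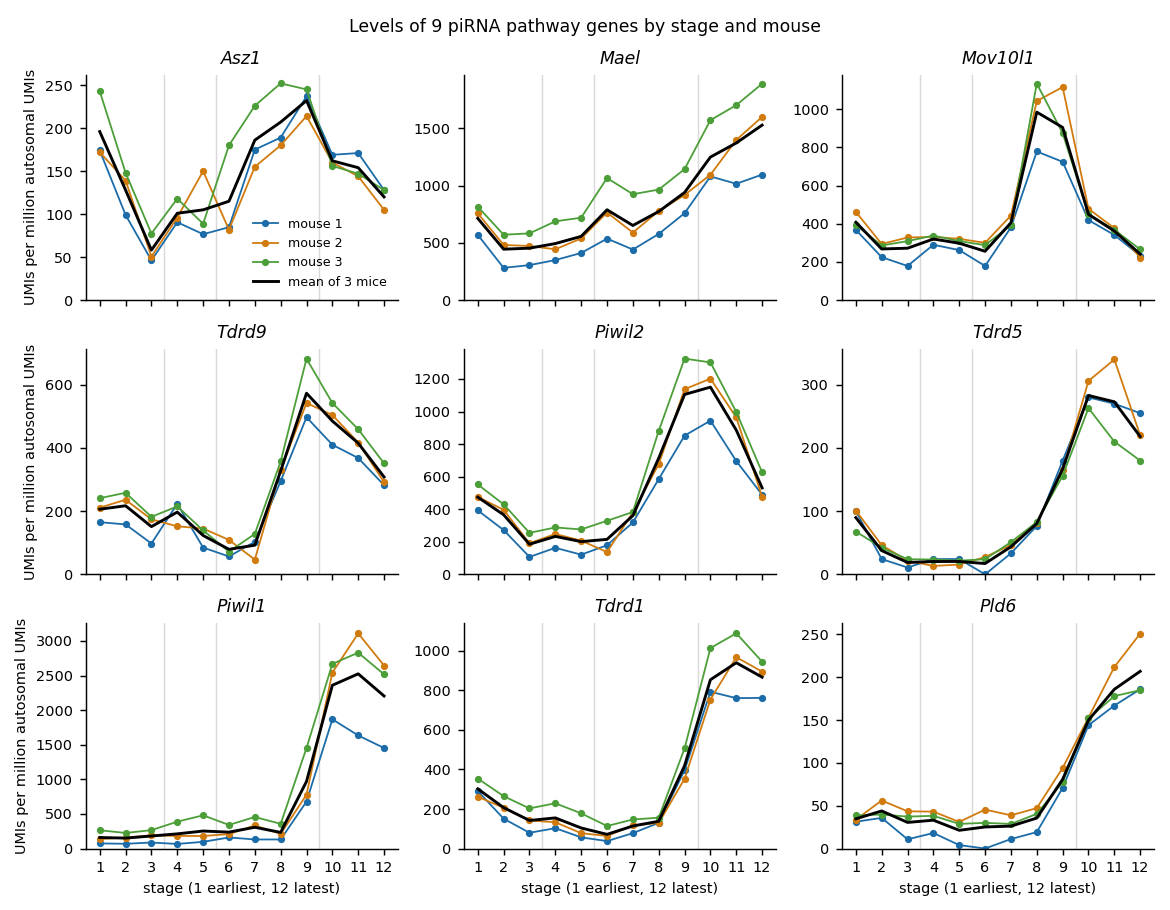
CPM (vertical axis, linear, from 0) by stage (horizontal axis) for the 9 tested genes, with a coloured line for each mouse and a black line for the mean of the 3 mice. Mov10l1 is highest at stage 8 or 9 and Piwil1, Tdrd1 and Tdrd5 at stage 10 or 11, while Mael and Pld6 are highest at stage 12 in all 3 mice.

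Mov10l1 (chromosome 15, 88982909 to 89055152) is the helicase that feeds piRNA precursors into processing. Among the genes that process them, it had a narrow peak in CPM at stages 8 and 9, the last stages named leptotene and zygotene-like. Pachytene markers summed to a mean of 2945 CPM for stage 8, rising to 5722 for stage 9 and 9258 for stage 10. Leptotene and zygotene markers fell over the same stages, from 10990 to 8073 and then 4963. Whether stage 9 held early pachytene cells was not tested. Mov10l1 stood at 381, 443 and 392 CPM in mice 1, 2 and 3 at stage 7. At stage 8 it stood at 778, 1042 and 1133. It was 724, 1115 and 874 at stage 9 and 419, 478 and 451 at stage 10. At stage 12 it was 233, 223 and 266, below the 368, 462 and 394 of stage 1 in every mouse. No mouse at stages 8 or 9 overlapped in CPM with any mouse at another stage. Its mean per 1000 UMIs of ERCC, synthetic RNAs added to each well, was 30.8 at stage 8 and 64.7 at stage 9. It was then 57.3, 66.6 and 56.4 at stages 10, 11 and 12, so the narrow peak was absent on that scale.

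Tdrd9 (chromosome 12, 111971559 to 112068854) is a helicase with a Tudor domain that takes part in transposon silencing. It was highest in CPM at stage 9 in every mouse, while its mean per 1000 ERCC UMIs was 42.3 there and 74.7 at stage 11. It stood at 56.5, 109 and 71.9 CPM in mice 1, 2 and 3 at stage 6, and at 497, 542 and 682 at stage 9. At stage 12 it was 282, 292 and 351, above stage 1 in every mouse, where it was 165, 211 and 241.

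Pld6 (chromosome 11, 59783897 to 59787645) encodes the mitochondrial nuclease of the pathway, also known as Zucchini. It stood at 31.3, 33.8 and 38.8 CPM in mice 1, 2 and 3 at stage 1 and at 19.2, 47.2 and 40.5 at stage 8. The values were 144, 153 and 152 at stage 10 and 186, 251 and 185 at stage 12. No mouse at stages 10 to 12 overlapped with any mouse at stages 1 to 9. At stage 6 mouse 1 had no UMI of the gene, in the sum with the fewest autosomal UMIs (106114).

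The Tudor scaffolds Tdrd1 and Tdrd5 had their lowest level in each mouse at stages 4 to 6 and their highest at stages 10 or 11. Tdrd1 (chromosome 19, 56826209 to 56870012), which binds methylated PIWI proteins, was 291, 262 and 354 CPM in mice 1, 2 and 3 at stage 1. It was 37.7, 63.7 and 114 at stage 6 and 761, 968 and 1089 at stage 11. Tdrd5 (chromosome 1, 156255296 to 156303664), needed for germ granules and piRNAs of pachytene cells, was 100, 101 and 67.7 at stage 1, 10.8, 21.7 and 23.9 at stage 3, and 280, 306 and 263 at stage 10. For both genes no mouse at stages 10 and 11 overlapped with any mouse at stages 1 to 9.

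Mael and Asz1 differed from these and from each other. Mael (chromosome 1, 166201201 to 166238747), a germ granule protein needed for transposon silencing, was 570, 758 and 816 CPM in mice 1, 2 and 3 at stage 1. It was 282, 482 and 571 at stage 2 and 1096, 1600 and 1889 at stage 12, where each mouse had its highest value. Asz1 (chromosome 6, 18050964 to 18109061), a mitochondrial partner of the processing machinery also known as GASZ, was 174, 172 and 243 at stage 1 and 46.3, 50.7 and 77.5 at stage 3. It was 237, 214 and 245 at stage 9 and 128, 105 and 128 at stage 12. The highest level of Asz1 was 4.19 ± 0.928 (SD, n = 3) times its lowest, against 21.1 ± 7.87 times for Piwil1.

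The genes reached their high levels at different stages. The first stage from stage 4 on with at least 50% of a gene's highest level was found in each mouse. It was stage 8 in all 3 mice for Mov10l1, Tdrd9 and Piwil2, stage 10 in all 3 mice for Tdrd1 and Pld6, and stage 9 or 10 for Tdrd5 and Piwil1. For Asz1 it was stage 7, 5 and 6 and for Mael stage 8, 9 and 6 in mice 1, 2 and 3, so the mice did not share a stage for these genes. The highest level itself came at stage 8, 9 and 8 for Mov10l1 and at stage 9 in all 3 mice for Tdrd9. It came at stage 10, 10 and 9 for Piwil2 and at stage 10, 11 and 11 for Piwil1 and Tdrd1. This ordering is of CPM, rests on the stage order of the main staging and is a description, chosen after the levels had been seen.

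In single wells the levels of Piwil1 and Mov10l1 spread widely. At stage 8 the wells of mouse 2 had a median of 251 CPM of Piwil1, per autosomal UMIs of the well, with a lowest value of 0 and a highest of 704. At stage 9 the median in mouse 2 was 701, from 146 to 1990, and at stage 10 it was 2446, from 1557 to 3503. The wells of stage 9 thus overlapped with those of both stages beside it. In mice 1 and 3 the median of Piwil1 was 118 and 245 at stage 8, 545 and 1236 at stage 9, and 1843 and 2653 at stage 10. Mov10l1 had a median of 848 in the wells of mouse 2 at stage 8, 1024 at stage 9 and 472 at stage 10. In mice 1 and 3 its median was 708 and 971 at stage 8, 789 and 788 at stage 9, and 432 and 428 at stage 10, so that stage 9 lay below stage 8 in mouse 3 and above it in mice 1 and 2. Wells of stage 8 were shallower, with a median of 8159 UMIs against 35215 at stage 10, so a single UMI weighs more in them.

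**Figure D2:**
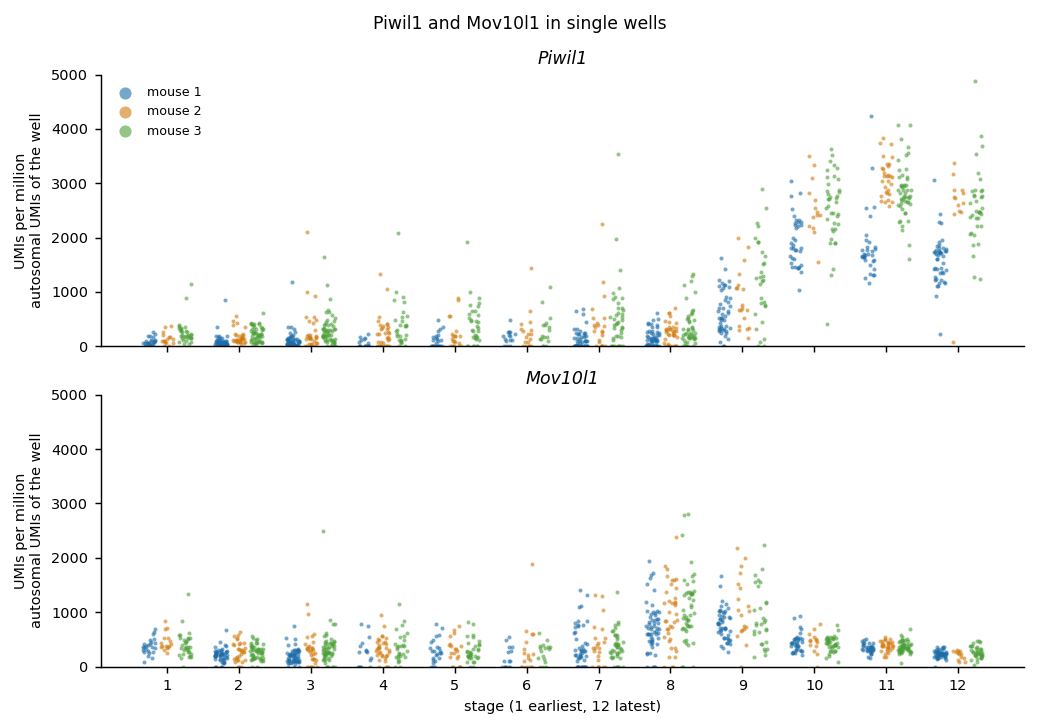
CPM of the well (vertical axes, linear) for Piwil1 and Mov10l1 by stage (horizontal axis), with a point for each well coloured by mouse and spread sideways. Piwil1 wells of stage 9 overlap with those of stages 8 and 10, where mouse 2 has medians of 251 and 2446, and the medians of Mov10l1 are highest at stages 8 and 9 in each mouse.

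The first comparison, of stage 3 with stage 1, covered the spermatogonia-like stages and was added after the levels had been seen. Tdrd5, Asz1 and Piwil2 had the largest falls of the members. Fold changes are log2 ratios from edgeR's quasi-likelihood test with the mouse as a block, given with their standard error (SE) and with p-values adjusted over all 10985 genes tested. They include TMM scaling factors, which CPM do not, and average the stages of a class on the log scale. Of the 9 tested members, 7 fell, where 21.0% of all genes were called lower, and edgeR called 0 higher, where 20% of all genes were. At an unadjusted p under 0.05 the number higher was also 0, and DESeq2 called 0 higher. The members' median was -0.66, against 0.04 for all genes tested.

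Tdrd5 fell by 2.19 ± 0.26 on the log2 scale (edgeR adjusted p = 2.65e-10), Asz1 by 1.71 ± 0.18 (2.37e-11) and Piwil2 by 1.38 ± 0.14 (1.72e-12), each in 3 of 3 mice. Tdrd1 fell by 1.14, Mael by 0.66, Mov10l1 by 0.59 and Tdrd9 by 0.45. Piwil1 had 0.21 ± 0.28 (edgeR adjusted p = 0.602) and Pld6 -0.31 ± 0.28 (edgeR adjusted p = 0.405). Without the mouse as a block, Mael (-0.65, edgeR adjusted p = 0.174) and Tdrd9 (-0.44, edgeR adjusted p = 0.277) were not called. Tdrd9 was not called without mouse 3 either (-0.48, edgeR adjusted p = 0.0897) or without the library sorted by a gate alone (-0.42, edgeR adjusted p = 0.0584).

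The second comparison set the 4 leptotene and zygotene-like stages against the 3 spermatogonia-like stages. Piwil1 rose by 1.19 ± 0.16 on the log2 scale (edgeR adjusted p = 4.86e-07), Mov10l1 by 0.86 ± 0.07 (4.07e-16), Asz1 by 0.71 ± 0.11 (5.17e-08), Piwil2 by 0.70 ± 0.08, Mael by 0.61 ± 0.06 and Tdrd5 by 0.58 ± 0.20 (edgeR adjusted p = 0.0105). Tdrd1 fell by 0.44 ± 0.10 (edgeR adjusted p = 0.000215). Tdrd9 had 0.10 ± 0.10 and Pld6 0.05 ± 0.20, neither called, although the mean CPM of Tdrd9 over these stages was higher in 3 of 3 mice. Thus 6 of 9 members rose relative to all UMIs (0 per ERCC UMI, the scale of synthetic spike-in RNA described below these comparisons), where 28.8% of all genes were called higher, and 1 fell, where 41.8% of all genes were called lower. The members' median was 0.61 and that of all genes -0.21.

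Stage 9 weighed heavily in this comparison. Without it, the rise of Piwil1 was 0.61 (edgeR adjusted p = 0.000108) and that of Piwil2 0.23 (0.0238). Tdrd5 then stood at -0.03 and was not called, Tdrd9 fell by 0.50 (edgeR adjusted p = 0.000272) and Tdrd1 fell by 1.03, so that 5 members rose and 2 fell. The rise of Tdrd5 was also not called without mouse 2 (0.59, edgeR adjusted p = 0.0562) or without mouse 3 (0.51, edgeR adjusted p = 0.124), or without the library sorted by a gate alone (0.54, edgeR adjusted p = 0.095).

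The third comparison set the 3 pachytene-like stages against the leptotene and zygotene-like stages. Piwil1 rose by 2.96 ± 0.14 on the log2 scale (edgeR adjusted p = 3.12e-15), Tdrd1 by 2.73 ± 0.09 (5.46e-33), Pld6 by 2.47 ± 0.14 (1.58e-23) and Tdrd5 by 2.29 ± 0.13 (9.62e-24). Tdrd9 rose by 1.16 ± 0.09, Mael by 0.97 ± 0.06 and Piwil2 by 0.85 ± 0.07. Mov10l1 fell by 0.54 ± 0.07 (edgeR adjusted p = 9.23e-10) relative to all UMIs, but stood at 1.88 per ERCC UMI, and Asz1 had -0.19 ± 0.10 (edgeR adjusted p = 0.0791). Thus 7 of 9 members rose, where 35.9% of all genes were called higher, and 1 fell, where 33.0% of all genes were called lower. The members' median was 1.16 and that of all genes 0.00. Each of the 7 that rose did so in 3 of 3 mice, with log2 ratios of the mean levels of 2.58, 2.85 and 2.04 for Piwil1 in mice 1, 2 and 3. Without stage 9, the fall of Mov10l1 was 0.11 on the log2 scale and was not called (edgeR adjusted p = 0.224).

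The last stage was then compared with the first. Piwil1 rose by 4.13 ± 0.28 on the log2 scale (edgeR adjusted p = 1.69e-12), Pld6 by 2.75 ± 0.21 (2.87e-18), Tdrd1 by 1.76 ± 0.15, Tdrd5 by 1.54 ± 0.18, Mael by 1.32 ± 0.11, Tdrd9 by 0.84 ± 0.14 and Piwil2 by 0.41 ± 0.13 (edgeR adjusted p = 0.0027). Relative to all UMIs Mov10l1 fell by 0.50 ± 0.12 (edgeR adjusted p = 0.000204) and Asz1 by 0.46 ± 0.16 (edgeR adjusted p = 0.00649), while both were higher per ERCC UMI, at 0.97 and 1.05. Thus 7 of 9 members rose, where 34.1% of all genes were called higher, and 2 fell, where 41.7% of all genes were called lower. The members' median was 1.32 and that of all genes -0.20. Within mice, the log2 ratio of the levels of Piwil1 was 4.30, 4.26 and 3.25 in mice 1, 2 and 3. Mice 1 and 2 differed in protocol and mice 2 and 3 shared one, and the part of the protocol in these ratios was not tested.

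The falls of Mov10l1 and Asz1 and the rise of Piwil2 held less firmly. Mov10l1 was not called without mouse 1 (-0.26, edgeR adjusted p = 0.0802) or without mouse 2 (-0.25, edgeR adjusted p = 0.162). Asz1 was not called without mouse 2 (-0.33, edgeR adjusted p = 0.103) or without mouse 3 (-0.40, edgeR adjusted p = 0.0501). Piwil2 was not called without mouse 3 (0.34, edgeR adjusted p = 0.0599) or without the mouse as a block (0.41, edgeR adjusted p = 0.242), and its log2 ratio of CPM was 0.31, 0.00 and 0.18 in mice 1, 2 and 3. Per ERCC UMI its log2 ratio was 1.85, 1.46 and 2.33, where the median fold change of all genes was 1.31 with ERCC library sizes. Over all 12 stages together, edgeR's F test called 9 of 9 members, where it called 95.7% of all genes.

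**Figure D3:**
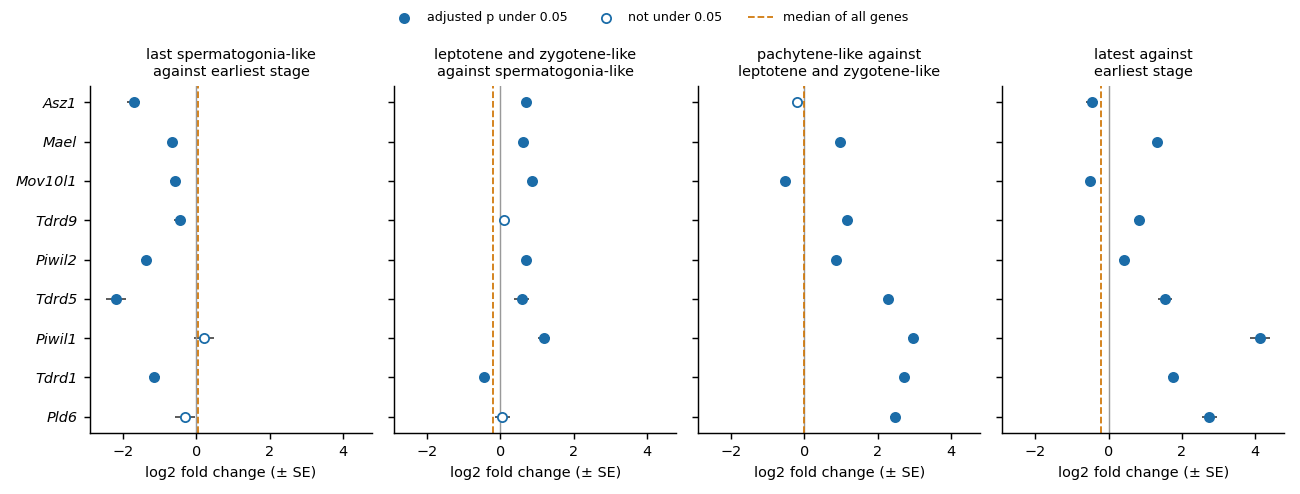
Log2 fold change with its SE (horizontal axes) of the 9 tested genes in the 4 comparisons. Values are relative to all UMIs. On the ERCC scale Mov10l1 and Asz1 have the opposite sign in the latest against the earliest stage. Both also have it in pachytene-like against leptotene and zygotene-like stages. Piwil2, Mov10l1, Mael, Tdrd5, Tdrd9, Asz1 and Pld6 have it in leptotene and zygotene-like against spermatogonia-like stages, where no member is then called higher. Piwil1 has it in the leftmost panel. Filled points have an adjusted p under 0.05, and the dashed line is the median of all genes tested: the 7 genes called in the leftmost panel lie below 0, and Piwil1, Tdrd1, Pld6 and Tdrd5 lie above 2 in the third panel.

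These fold changes are relative to the other RNA of the same cells, and the amount of RNA itself changed. UMIs per ERCC UMI, where ERCC are synthetic RNAs added to each well, were lower by 1.95 ± 0.26 on the log2 scale (SD, n = 3) at stage 7 than at stage 1 and higher by 1.68 ± 0.38 at stage 12. With library sizes taken from ERCC UMIs, the median of all genes moved to 1.31 for the latest against the earliest stage. It moved to -1.15 for leptotene and zygotene-like against spermatogonia-like stages, to 2.36 for pachytene-like against leptotene and zygotene-like stages, and to -0.81 for stage 3 against stage 1. Of all called genes, 75.7%, 10.2%, 96.3% and 5.8% were then higher, against 45.0%, 40.8%, 52.1% and 48.8% on the main scale.

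On the ERCC scale Mov10l1 and Asz1 changed direction in the latest stage. Mov10l1 at 0.97 (edgeR adjusted p = 2.34e-06) and Asz1 at 1.05 (edgeR adjusted p = 4.1e-06) were both below the median of all genes of 1.31. Piwil1 was 5.65 higher. In leptotene and zygotene-like against spermatogonia-like stages no member was called higher by edgeR on this scale, with 1 at an unadjusted p under 0.05, and 5 were called lower. Piwil2 at -0.28, Mael at -0.37 and Tdrd9 at -0.87 were among these, all above the median of all genes of -1.15. Tdrd1 at -1.41 lay below it. Of all 10985 genes, 882 were called higher in this comparison and 7806 lower. In stage 3 against stage 1 all 9 members were called lower on this scale, Piwil1 among them at -0.60 (edgeR adjusted p = 0.0155). There 5649 of all 10985 genes were called lower.

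**Figure D4:**
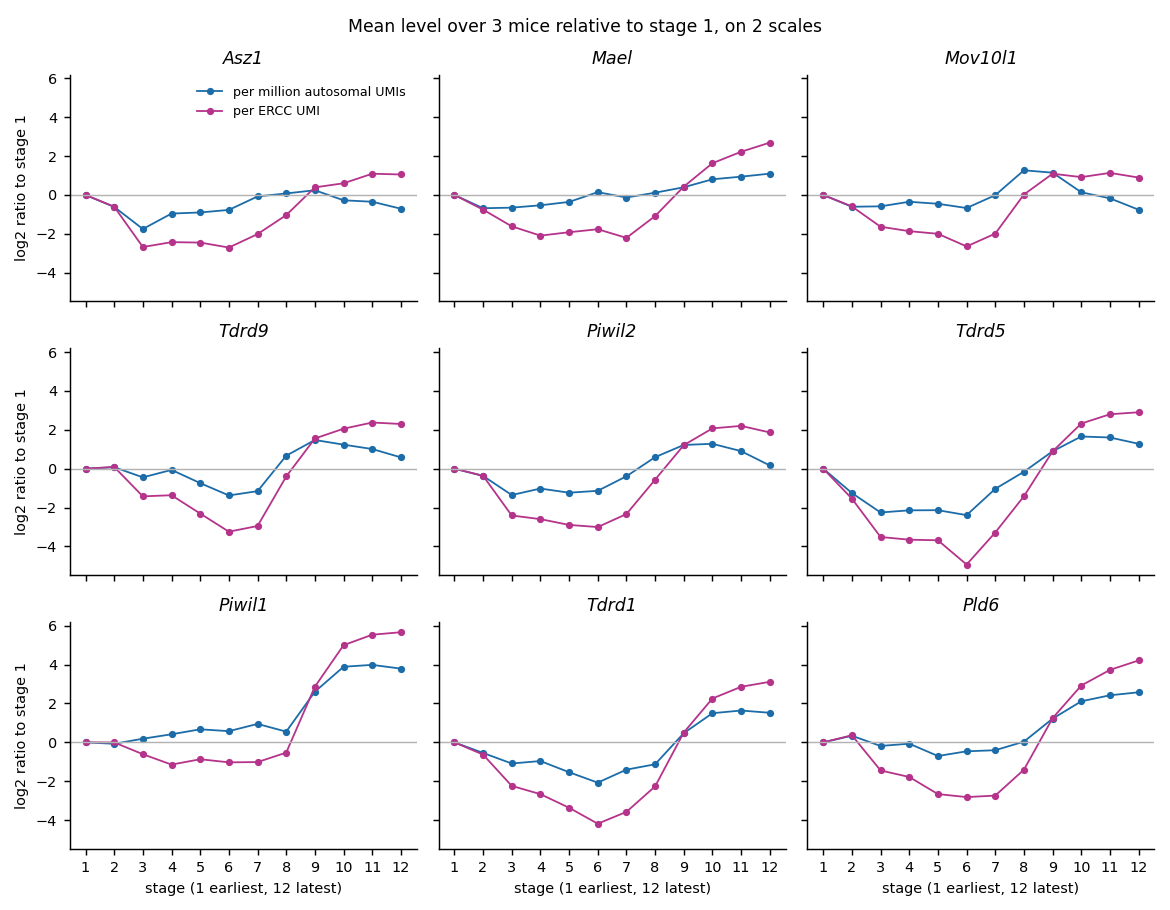
Log2 ratio of the mean level over 3 mice to that of stage 1 (vertical axes) by stage (horizontal axis), in CPM in blue and per ERCC UMI in magenta. Per ERCC UMI every one of the 9 genes is below its stage 1 level at stages 3 to 7 and above it at stage 12, where Mov10l1 and Asz1 are below it in CPM.

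The members differed in how alike their profiles were. Over the 36 sums, which share mice and differ in depth, Pearson's r of log2(CPM + 1) was 0.90 for Piwil1 with Mael, 0.85 for Piwil1 with Tdrd1 and 0.88 for Tdrd1 with Pld6. It was 0.17 for Mov10l1 with both Piwil1 and Tdrd1, and 0.69 for Mov10l1 with Asz1. Among all 10985 genes tested, the 5 with the highest r with Piwil1 were Dkkl1, 1700008K24Rik and 1700042G15Rik (0.981 each), Slc2a3 (0.979) and Cox8c (0.978). Those of Piwil2 were Taf9 (0.926), Rpl10l (0.922), Kdm5b (0.916), Ndufs6 (0.912) and Ybx1 (0.910). Dkkl1 and 1700008K24Rik were among the genes from which the stages were built.

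The stretches before the members' start sites were searched for the motif of MYB factors, AACNGNC, and for the E-box CACGTG, on both strands. RefSeq (GRCm38.p6) gave 13 stretches of 250 bases before a start for 9 members. The MYB motif was in 6 of the 13, where 27.7% of all 32851 such stretches held it, and the E-box was in 7 of the 13, where 6.02% of all held it. Of these 7, 2 are overlapping stretches of Tdrd1 that hold the same E-box. Mael, Mov10l1, Piwil1 and Tdrd9 had both in the same stretch, and Asz1 and Piwil4 had neither. Piwil1 and Mov10l1, whose profiles had an r of 0.17, are shown on the plus strand, each up to the first exon that GENCODE annotates there, with motif matches in capitals. The Piwil1 stretch lies in an intron of a longer Piwil1 transcript and before the start of a shorter one, and the Mov10l1 stretch lies before the gene.
Piwil1, chr5:128735996-128736173: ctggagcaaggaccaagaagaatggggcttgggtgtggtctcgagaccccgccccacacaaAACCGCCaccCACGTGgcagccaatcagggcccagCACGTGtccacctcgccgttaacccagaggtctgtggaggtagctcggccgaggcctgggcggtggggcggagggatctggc
Mov10l1, chr15:88982744-88982908: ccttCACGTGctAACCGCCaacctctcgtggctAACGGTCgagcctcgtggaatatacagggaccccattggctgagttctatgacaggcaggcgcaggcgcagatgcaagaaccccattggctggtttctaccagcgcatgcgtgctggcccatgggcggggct
Both stretches hold AACCGCC close to an E-box, before it in Piwil1 and after it in Mov10l1. Matches of the motifs do not overlap each other. A match describes letters in this window, not a bound site.

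Other genes of the pathway were taken from 3 lists, and 19 of their 22 genes could be tested. Mybl1, which encodes A-MYB, rose by 4.02 ± 0.26 on the log2 scale from the spermatogonia-like to the leptotene and zygotene-like stages (edgeR adjusted p = 6.68e-21). It stood at 5.01, 8.45 and 1.99 CPM in mice 1, 2 and 3 at stage 1, from 4, 3 and 2 UMIs. At stage 6 it was 94.2, 127 and 47.9, from 10, 14 and 8 UMIs. From the mean of the leptotene and zygotene-like stages to that of the pachytene-like stages it had -0.17 ± 0.16 (edgeR adjusted p = 0.351), against 2.23 per ERCC UMI, and its mean was 89.9 CPM at stage 6 and 50.3, 57.2 and 54.7 at stages 10, 11 and 12. Every mouse had more Mybl1 at stage 6 than any mouse at stages 1 to 4, while Piwil1 stood at 160, 209 and 341 at stage 6. Tcfl5, the other tested transcription factor, rose by 1.55 from leptotene and zygotene-like to pachytene-like stages.

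Of the 14 other germ granule and biogenesis genes, all 14 were tested. From leptotene and zygotene-like to pachytene-like stages 10 rose, where 35.9% of all genes were called higher, and edgeR called 0 lower, also at an unadjusted p under 0.05, where 33.0% of all genes were. The median was 0.77, against 0.00 for all genes. On the ERCC scale all 14 were called higher, as were 9550 of all 10985 genes. Tdrd6, a Tudor scaffold of the chromatoid body, rose by 3.57 ± 0.23 (edgeR adjusted p = 1.39e-13), from 35.7 ± 18.8 CPM (SD, n = 3) at stage 9 to 449 ± 89.6 at stage 12. Henmt1, which methylates piRNA ends, rose by 3.08 ± 0.29 after a fall of 2.63 ± 0.32 on the log2 scale from spermatogonia-like stages. Ddx4, the germ granule helicase VASA, rose by 0.64 ± 0.07 into the leptotene and zygotene-like stages relative to all UMIs, but fell by 0.34 on the log2 scale per ERCC UMI (edgeR adjusted p = 0.00192). It rose by 0.91 ± 0.06 into the pachytene-like stages. From spermatogonia-like to leptotene and zygotene-like stages 7 of the 14 rose, where 28.8% of all genes were called higher, and 5 fell, a share near the 41.8% of all genes called lower. On the ERCC scale 1 of the 14 was called higher there and 9 lower, against 882 and 7806 of all 10985 genes. Gpat2 rose by 1.43 ± 0.10, the largest rise of this list there.

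In stage 3 against stage 1, 8 of the 14 genes fell, where 21.0% of all genes were called lower, and 3 rose, a share near the 20% of all genes called higher. The median was -0.49, against 0.04 for all genes. On the ERCC scale 10 were called lower and edgeR called 0 higher, also at an unadjusted p under 0.05. Of all 10985 genes, 5649 were called lower on that scale and 347 higher. Gtsf1, a partner of PIWI proteins, fell by 2.18 ± 0.20 on the log2 scale (edgeR adjusted p = 2.42e-13), from 136 ± 37.7 CPM (SD, n = 3) to 28.9 ± 3.69. Ddx4 fell by 0.54 ± 0.12 and Tdrkh, a mitochondrial Tudor protein, rose by 0.63 ± 0.20 (edgeR adjusted p = 0.00915) but stood at -0.21 per ERCC UMI (edgeR adjusted p = 0.492). Wdr77, a partner of the methyltransferase Prmt5, rose by 0.47 ± 0.17 (edgeR adjusted p = 0.0196) but stood at -0.38 per ERCC UMI (edgeR adjusted p = 0.125). In the latest against the earliest stage, 8 of the 14 rose, where 34.1% of all genes were called higher, and 3 fell, where 41.7% were called lower. The median was 0.85, against -0.20 for all genes, with Tdrd6 at 5.16 ± 0.37. On the ERCC scale 12 were called higher and edgeR called 0 lower, also at an unadjusted p under 0.05. Of all 10985 genes, 6845 were called higher on that scale and 2194 lower.

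The nuclear silencing partners, which act with Piwil4 in fetal germ cells, were lower in the latest than in the earliest stage. Of 5 genes on this list 3 were tested, and all 3 fell, Dnmt3a by 5.87 ± 0.27 on the log2 scale (edgeR adjusted p = 3.24e-24), Tex15 by 4.33 ± 0.31 (5.17e-12) and Morc1 by 3.25 ± 0.22 (3.81e-20). In this comparison 41.7% of all genes were called lower. EdgeR called 0 of the 3 higher, also at an unadjusted p under 0.05. All 3 were called lower on the ERCC scale too, as were 2194 of all 10985 genes. Dnmt3a, a DNA methyltransferase, stood at 263, 304 and 304 CPM in mice 1, 2 and 3 at stage 1 and at 3.35, 4.25 and 4.58 at stage 12. Tex15 had its high level in between, at 2563, 3405 and 3966 at stage 6 against 611, 831 and 688 at stage 1. Morc1 fell by 3.61 ± 0.27 already from stage 1 to stage 3, where it stood at 11.8, 12.1 and 19.1. From leptotene and zygotene-like to pachytene-like stages it had 1.63 ± 0.27 (edgeR adjusted p = 2.84e-07), and 4.01 per ERCC UMI. Its mean was 58.7 CPM at stage 10. Tex15 had -4.06 ± 0.18 there and Dnmt3a -2.7 ± 0.32, against -1.62 and -0.28 per ERCC UMI. Of all genes, 35.9% were called higher in that comparison and 33.0% lower.

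**Figure D5:**
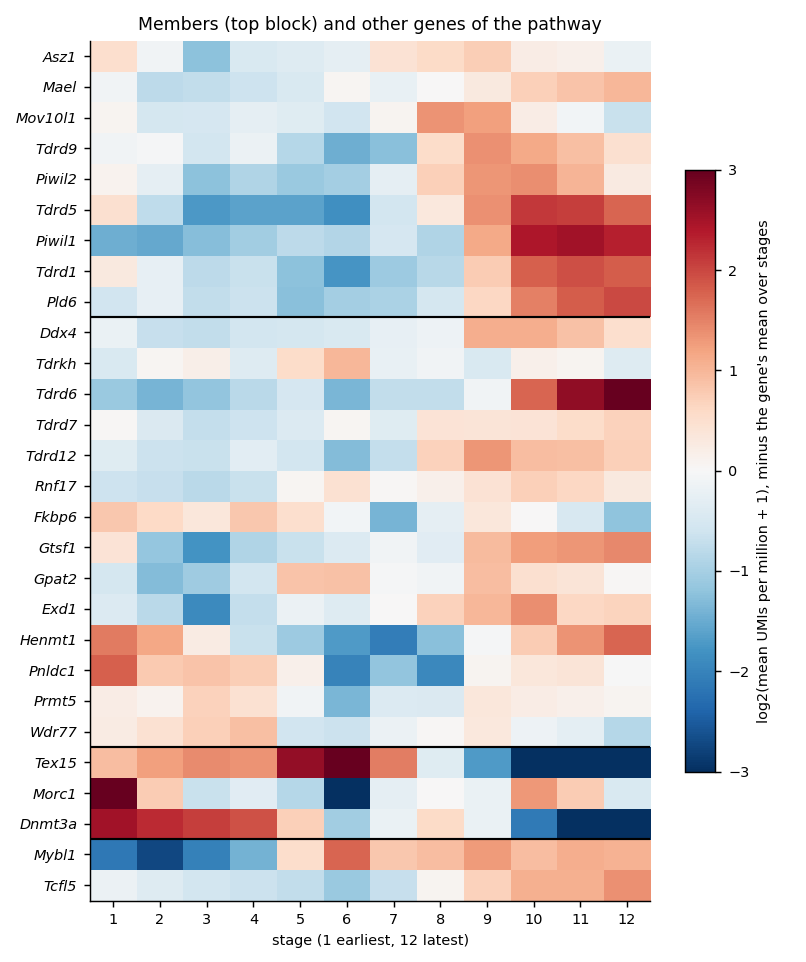
Log2(mean CPM + 1) over 3 mice, minus each gene's mean over the stages, by stage (horizontal axis), with colours limited to 3 units either way. Blocks from the top are the 9 tested members, 14 other germ granule and biogenesis genes, 3 nuclear silencing partners and 2 transcription factors: Piwil1, Tdrd1, Tdrd5, Pld6 and Tdrd6 are red at stages 10 to 12, while Tex15 and Dnmt3a are blue there.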

How the data were processed

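Single wells of testis cells of 3 mice were analysed. The authors deposited UMI counts and read counts per gene and well. A further table holds estimated counts of transcripts, which the authors computed before deposit, and these were rounded here to whole numbers. The submitters' processing notes name BWA 0.7.10 and mm10; the counting step is not given in the sources used here. In the transcript table the wells of mouse 1 stand in another order and were matched by their profile. The members and lists were chosen with earlier results of these data known.

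Wells with at least 1000 UMIs were staged from 1500 variable genes of odd-numbered autosomes, without members and list genes (Seurat 5.3.0 anchors across mice, scanpy 1.11.5, Leiden resolution 1, diffusion pseudotime). Names are rebuilt from markers. A stage needed 10 wells in at least 2 mice and a median depth of at least 1/3 of that of all kept wells. 1 cell was sorted per well and no doublet caller was run. UMIs were added per mouse and stage and fitted with edgeR 4.0.16 (quasi-likelihood, TMM, filterByExpr, stage plus mouse as a block, since the same mice give every stage), adjusted by Benjamini-Hochberg. Contrasts average stages equally on the log scale. DESeq2 1.42.0 was an alternative, as were other tables, scalings, filters and stagings. On simulated counts of 10985 genes for the latest against the earliest stage, 31% of 2-fold and 92% of 4-fold changes were recovered. These counts had the same fixed spread for every gene, no differences between mice and changes at the last stage only. The real counts differ in this, so these shares need not hold for them.

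Total UMIs were 16682671, 5866174 and 18032562 in mice 1, 2 and 3, with medians of 16275, 9830 and 14132.5 in the 545, 321 and 582 kept wells. Limits from counts of 0 use 3 counts and cover counting error only. The text names all members. From the other lists it names the 2 largest rises and the 2 largest falls among the called genes of each comparison, with Ddx4 and Mybl1, and for PIWI genes the 5 genes of highest r. Tcfl5, the fall of Morc1 in the latest stage and its rise in pachytene-like stages were named after their values were seen, as members of short lists. Gene positions are from GENCODE M21 (GRCm38).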

Additional observations from a re-analysis of the deposited data

Results flagged for a closer look

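Wells that fell into no stage also held UMIs of these genes and entered no comparison. The summed level of the 10 genes was 5045 counts per 1000000 autosomal UMIs in the 472 wells under 1000 UMIs, from 892 UMIs in all. Among kept wells it was 5575 in a cluster of 108 wells led by Lars2 and Gas7, with a median of 2034 UMIs, and 3722 in a cluster of 62 wells led by Vmn2r55 and A630089N07Rik. A cluster of 37 wells led by Lrrc17 and Dph5 stood at 1655. A cluster of 29 wells led by Pxmp4 and Fam169b, 26 of them from mouse 1, stood at 5308 with a median of 62382 UMIs. The 12 wells led by the protamine genes Prm2 and Prm1 stood at 2513. Over the 12 stages the same sum ran from 1468 at stage 3 to 7373 at stage 10. Piwil1 was 1601 in the wells under 1000 UMIs and 1748 in the Lars2 cluster, against 173 at stage 1 with wells of all mice pooled. Piwil4 had no UMI in any of these sets.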

How the results depend on the processing

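Precision is limited by 3 mice and by shallow sums, which begin at 106114 autosomal UMIs. Over single-gene values, 581 kept direction and call, 28 lost a call, 8 gained one and 31 changed sign. In the latest against the earliest stage the number of members lower (2) became 0 with read counts, ERCC library sizes, Leiden resolution 0.6, even-numbered autosomes or no alignment across mice, and 1 without a filter on low counts. Resolution 0.6, even-numbered autosomes and no alignment also changed which wells formed the last stage. With even-numbered autosomes or no alignment, Stambp and Slc47a2 were among its leading genes, as in stage 11 of the main staging. At resolution 0.6 it held 192 wells, against 95 in the main staging. In leptotene and zygotene-like against spermatogonia-like stages, the number higher (6) became 0 with ERCC sizes, and the number lower (1) became 5 with ERCC sizes, 0 with sums of at least 20 wells or resolution 0.6, and 2 without stage 9. In pachytene-like against leptotene and zygotene-like stages, the number lower (1) became 0 with ERCC sizes or without stage 9 and 2 with sums of at least 20 wells, even-numbered autosomes or no alignment. The counts of 0 were also 0 at an unadjusted p under 0.05, except 1 for the number higher in leptotene and zygotene-like stages with ERCC sizes. In stage 3 against stage 1 edgeR called 0 higher under each setting, with 1 at an unadjusted p under 0.05 for resolution 0.6. This comparison took the last differentiating spermatogonia-like stage of each staging. That was stage 4 with even-numbered autosomes and a stage of 232 wells at resolution 0.6, against 142 wells in the main staging. Leaving out stages 5 or 9 was chosen after seeing the data.

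Without the mouse as a replicate block, latest against earliest gave 6 higher and 1 lower and stage 3 against stage 1 gave 5 lower. Piwil2 (0.41, edgeR adjusted p = 0.242) and Asz1 (-0.47, edgeR adjusted p = 0.105) lost their calls there, as did Mael and Tdrd9 in stage 3 against stage 1, and no other call of a member changed. Without replicate 1, 2 or 3 (each mouse in turn), latest against earliest gave 6 to 7 higher and 0 to 1 lower, leptotene and zygotene-like against spermatogonia-like stages 5 to 6 higher and 1 lower, pachytene-like against leptotene and zygotene-like stages 7 higher and 1 lower, and stage 3 against stage 1 gave 0 higher and 6 to 7 lower.

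Signs turned as follows, as log2 fold changes. Latest against earliest: Mov10l1 was 0.97 with ERCC sizes, 0.07 with resolution 0.6, 0.01 with even-numbered autosomes and 0.26 without alignment, and Asz1 was 1.05 with ERCC sizes and 0.03 with resolution 0.6. With resolution 0.6, even-numbered autosomes or no alignment the last stage was made of other wells, so the comparison was not the same. Leptotene and zygotene-like against spermatogonia-like stages with ERCC sizes: Piwil2 -0.28, Mov10l1 -0.12, Mael -0.37, Tdrd5 -0.39, Tdrd9 -0.87, Asz1 -0.26 and Pld6 -0.90. With read counts it was -0.06 for Tdrd5, -0.03 for Tdrd9 and -0.02 for Pld6. Pld6 was also -0.04 with median-ratio size factors, with DESeq2 and with wells of at least 3000 UMIs, -0.03 without a filter, and -0.08 to 0.21 with each mouse left out in turn, the lowest without replicate 2. Without stage 9 it was -0.03 for Tdrd5, -0.50 for Tdrd9 and -0.43 for Pld6. Pachytene-like against leptotene and zygotene-like stages: Mov10l1 was 1.88 with ERCC sizes, and Asz1 was 2.22 with ERCC sizes, 0.26 with read counts, 0.07 without a filter and 0.12 without stage 9. Stage 3 against stage 1: Piwil1 was -0.60 with ERCC sizes and Pld6 was -0.55 to 0.00 with each mouse left out in turn, the highest without replicate 1. The cause was not tested. DESeq2 was not run over all stages together, and staging without alignment used mice 2 and 3 only.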

Other observations

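The genes that finish the 3′ ends of piRNAs had a low stretch in leptotene and zygotene-like stages. They were picked after their values had been seen. Pnldc1, the exonuclease that trims piRNA ends, stood at 50.1, 53.5 and 103 CPM (counts per 1000000 autosomal UMIs) in mice 1, 2 and 3 at stage 1. At stage 8 it was 5.89, 3.15 and 3.68, from 7 UMIs in all, and at stage 11 it was 16.0, 25.8 and 33.1. It fell by 2.44 ± 0.27 (SE) on the log2 scale into the leptotene and zygotene-like stages (edgeR adjusted p = 7.55e-12) and rose by 1.68 ± 0.29 into the pachytene-like stages (edgeR adjusted p = 7.09e-07). Henmt1, which methylates the trimmed ends, stood at 80.2, 39.4 and 51.8 at stage 1 and at 2.95, 9.45 and 9.20 at stage 8. At stage 12 it was 62.3, 67.0 and 65.6, within the range of stage 1. Pnldc1 was 18.7 ± 3.86 CPM (SD, n = 3) there and did not overlap with its stage 1 values. Per ERCC UMI, stage 12 against stage 1 gave a log2 fold change of -0.06 for Pnldc1 (edgeR adjusted p = 0.852). For Henmt1 it was 1.85 on that scale (edgeR adjusted p = 6.83e-09).

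Fkbp6, a co-chaperone of the pathway, and Gpat2, a mitochondrial protein, also had 2 separate high stretches in CPM. Fkbp6 stood at 383, 451 and 442 CPM in mice 1, 2 and 3 at stage 1, at 94.4, 77.7 and 102 at stage 7, and at 316, 302 and 296 at stage 9. Gpat2 stood at 292, 319 and 312 at stage 6, at 128, 126 and 204 at stage 8, and at 251, 314 and 390 at stage 9. For Fkbp6 the ranges of stages 1, 7 and 9 did not overlap, and for Gpat2 those of stages 6 and 8 did not. These step-by-step differences were not tested.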
